A study of Mus musculus with 16 samples.

Results

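Il4, Il13, Cd40lg and Izumo1r are 4 of the 32285 genes in each count table. They were chosen by their measured levels in these same libraries, where their RNA had been seen together in a group of LN γδ T cells, so their levels and their presence in that group are given as a description, without a test. Il4 and Il13 encode the cytokines of type 2 immunity, Cd40lg encodes CD40 ligand, and Izumo1r encodes folate receptor 4 (FR4). Each gene was followed in the 5 pools of γδ T cells, by tissue, arm and subset, and in CD4 T cells and Foxp3+ cells of 3 CITE-seq libraries of the liver-draining lymph node (LN).

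IL-4 acts on B cells, T cells and dendritic cells (DC) through the IL-4 receptor alpha chain, and IL-13 shares that chain but needs the IL-13 receptor alpha 1 chain as its partner. CD40L on helper T cells binds CD40 on B cells and DC and licenses them for antibody responses and for T cell priming. A small subset of mouse γδ T cells carries the transcription factor PLZF (Zbtb16) and the Vγ1 chain (Tcrg-V1) and is known for making IL-4 together with IFN-γ. FR4 is best known as a surface marker of regulatory T cells and of anergic CD4 T cells.

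The libraries came from the 3,5-diethoxycarbonyl-1,4-dihydrocollidine (DDC) diet, which injures bile ducts and causes cholestasis in mice. γδ T cells had been sorted as living CD45+ CD3e+ TCRβ- TCRγδ+ cells, labelled with hashtag antibodies and sequenced as pools, and the CITE-seq libraries held several sorted LN fractions mixed at equal ratios. Male mice of 6 to 12 weeks were used, of the C57BL/6J strain except in the arms given toxin. The arms were D0 (no DDC), D5, D9 and D19 (days on 0.1% DDC), STOP (18 days of DDC and then 7 days of recovery) and D5-DT. D5-DT mice carried Mgl2-DTR, a diphtheria toxin receptor expressed from the Mgl2 gene, and received toxin on days -1 and 2 around 5 days of DDC; the toxin kills cells that carry the receptor. The liver had all 6 arms, and the LN had D0, D5, D19, STOP and D5-DT. The CITE-seq libraries were D0, D5 and D19 (the D5 library is named D6 in its description, and the LN pool with D19 names both 18 and 19).

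The early liver arms (D0, D5, D9) formed 1 pool and the late ones (D19 with STOP) another, the LN arms were split likewise into D0 with D5 and D19 with STOP, and the D5-DT arms of both tissues were pooled together. Each condition was therefore 1 hashtag arm or 1 library, the number of mice behind it was not given, and D5-DT and D5 lay in different pools. The values carry 95% intervals for counting error only, and no p-value is given. Of 31604 cells in the pools, 28081 were γδ T cells with an accepted hashtag, with medians of 2707 to 5334 unique molecular identifiers (UMIs, counted RNA molecules) per cell in the 11 arms. Pairs of libraries shared 0 to 29 cell barcodes among 1719 to 12487 barcodes with 1000 or more UMIs. Levels are CPM, the UMIs of a gene per 1000000 UMIs of all genes, summed over the cells of a group. In such sums, fewer expressing cells and less RNA per cell cannot be told apart without the shares of cells given beside them.

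Il4 and Il13 are neighbours on chromosome 11 (GRCm38), at positions 53612460 to 53618665 and 53631323 to 53634702, 12657 bases apart and both on the minus strand. Cd40lg lies on chromosome X (57212143 to 57224042) and Izumo1r on chromosome 9 (14885814 to 14903951). The 250 bases before a RefSeq start are shown for 3 of the genes, because the cytokine genes are switched on through the T cell receptor and its factor NFAT. Capitals mark the core of the NFAT motif, GGAAA, read on both strands (TTTCC on the other). The Izumo1r window begins inside the listed gene.
Il4, chr11:53618666-53618915, minus strand: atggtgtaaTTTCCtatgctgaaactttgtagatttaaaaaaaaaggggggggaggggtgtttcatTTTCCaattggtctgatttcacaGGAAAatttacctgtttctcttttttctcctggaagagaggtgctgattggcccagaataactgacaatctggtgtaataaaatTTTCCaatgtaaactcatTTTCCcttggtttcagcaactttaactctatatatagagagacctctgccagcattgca
Il13, chr11:53634703-53634952, minus strand: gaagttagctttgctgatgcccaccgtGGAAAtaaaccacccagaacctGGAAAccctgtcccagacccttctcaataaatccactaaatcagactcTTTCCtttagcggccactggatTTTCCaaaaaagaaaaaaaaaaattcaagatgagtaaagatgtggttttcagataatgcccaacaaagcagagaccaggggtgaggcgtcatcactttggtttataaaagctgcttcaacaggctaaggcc
Izumo1r, chr9:14903768-14904017, minus strand: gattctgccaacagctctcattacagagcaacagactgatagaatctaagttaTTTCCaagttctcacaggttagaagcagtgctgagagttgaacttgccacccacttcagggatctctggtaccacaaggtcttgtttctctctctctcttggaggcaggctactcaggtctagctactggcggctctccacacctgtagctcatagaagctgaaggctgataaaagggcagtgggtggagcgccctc
The Il4 window held 5 copies of this core, the Il13 window 4 and the Izumo1r window 1. A second RefSeq window of Il4, chr11:53617339-53617588, which lies inside the gene, held 0 copies. Of 32536 RefSeq windows of this length, 55.7% held at least 1 copy, 1.59% held 4 or more and 0.390% held 5 or more. A match of 5 letters describes the sequence only and shows no binding.

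Il4 was found at its highest in LN γδ T cells at D5 and STOP and in liver γδ T cells at D0. In the LN its level was 4.63 CPM at D0 (28 UMIs), 12.0 CPM at D5 (493 UMIs), 7.38 CPM at D19 (13 UMIs), 14.1 CPM at STOP (34 UMIs) and 3.65 CPM at D5-DT (14 UMIs). In the liver it was 10.8 CPM at D0 (35 UMIs), 4.02 CPM at D5 (77 UMIs), 1.66 CPM at D9 (22 UMIs), 0.606 CPM at D19 (11 UMIs), 1.75 CPM at STOP (9 UMIs) and 2.62 CPM at D5-DT (25 UMIs). LN D5 (interval 11.003 to 13.2 CPM) lay clear of LN D0 (3.08 to 6.70 CPM), and liver D0 (7.49 to 14.95 CPM) lay clear of every later liver arm. When the 11 arms were put in order, only liver D9 and liver D19 were neighbours whose ratio had an interval clear of 1.

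A single Il4 UMI was the rule. At D5 in the LN, 320 of 8714 γδ T cells (3.67%) held Il4, with a median of 1 and a highest count of 6 UMIs in a cell. In the same pool 0.436% of 688 B cell-like cells held an Il4 UMI, at a median of 3189 UMIs, against 4238 UMIs in the LN D5 γδ T cells. None was found in 124 mature DC-like cells. Of 69 monocyte or macrophage-like cells, 2.90% held it, at a median of 4055 UMIs. The interval of that share, 0.353 to 10.1%, covers the share of LN D5. In the pool of liver D0, D5 and D9 the comparison was not clear either. There 3.09% of 97 monocyte or macrophage-like cells held Il4 at a median depth of 13395 UMIs, against 4.57% of liver γδ T cells at D0, 1.59% at D5 and 0.713% at D9, so the shares at D5 and D9 over all liver γδ T cells were not above those of these deeper cells. Per UMI the monocyte or macrophage-like cells held Il4 at 3.00 CPM, close to the levels of all γδ T cells at D5 and D9. In the pool of LN D19 and STOP 1 of 111 B cell-like cells held Il4, with 6 UMIs, and the share of 0.901% (interval 0.0228 to 4.92%) could not be set apart from 2.38% of LN γδ T cells at D19 or 4.69% at STOP.

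Il13 was rare in every arm of the pools. It was found in 0 to 19 UMIs per arm, 24 UMIs in all LN arms and 11 UMIs in all liver arms. LN D5 held 19 of these in 14 cells (0.464 CPM, interval 0.279 to 0.725), and the other LN arms held 2 at STOP, 2 at D5-DT, 1 at D0 and 0 at D19. The liver arms held 5 at D5, 2 at D19, 2 at D5-DT, 1 at D9, 1 at STOP and 0 at D0, where 0 of 634 cells allows a share of up to 0.473%. No order of the arms can be read from so few molecules.

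Cd40lg stood out in the liver of mice without DDC. Its level there was 102.9 CPM at D0, with 138 of 634 cells (21.8%) holding at least 1 UMI, and it was 29.6 CPM at D5, 12.5 CPM at D9, 12.0 CPM at D19, 15.1 CPM at STOP and 32.4 CPM at D5-DT. In the LN it was 21.5 CPM at D0, 28.7 CPM at D5, 21.0 CPM at D19, 51.5 CPM at STOP and 19.5 CPM at D5-DT. Liver D0 (interval 92.2 to 114.5 CPM) was above LN STOP (42.8 to 61.4 CPM), and LN STOP was above all the other arms. Below them, LN D5 and LN D0 were the only neighbours in the order whose ratio had an interval clear of 1.

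Izumo1r was higher in LN arms than in liver arms at D0, D5 and D19, at STOP and at D5-DT. The 5 LN arms held 40.5 CPM at D0, 33.7 CPM at D5, 13.6 CPM at D19, 29.5 CPM at STOP and 29.2 CPM at D5-DT. The 6 liver arms held 13.2 CPM at D0, 16.7 CPM at D5, 5.97 CPM at D9, 2.97 CPM at D19, 6.02 CPM at STOP and 21.4 CPM at D5-DT. Over all γδ T cells, the lowest Izumo1r level in both tissues was that of D19. The transcript was held by 10.3% of LN γδ T cells at D5 against 0.688% of liver γδ T cells at D19. In the pool of early LN arms B cell-like cells held Izumo1r in 1.31% and Cd40lg in 0.581%, below the shares of LN D0 and D5 γδ T cells (5.27% and 7.21% for Cd40lg, 11.2% and 10.3% for Izumo1r). Mature DC-like cells held them in 1.61% and 0.806%. The 69 monocyte or macrophage-like cells held them in 5.80% (interval 1.60 to 14.2%) and 2.90% (interval 0.353 to 10.1%). These intervals cover the shares of the γδ T cells. In the other pools the background was not clear either. The B cell-like cells of the LN D19 and STOP pool held each gene in 1.80% (interval 0.219 to 6.36%), which covers LN D19 (4.75% for Cd40lg and 4.99% for Izumo1r). The deeper monocyte or macrophage-like cells of the liver D0, D5 and D9 pool held Cd40lg in 5.15% and Izumo1r in 2.06%, above the 3.68% and 1.86% of liver D9 γδ T cells. The pool of liver D19 and STOP had under 20 cells of each such class and gives no background. In the order of Izumo1r levels LN D0 was set apart from LN D5 below it, while LN D5, LN STOP and LN D5-DT could not be told apart as neighbours.

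**Figure D1:**
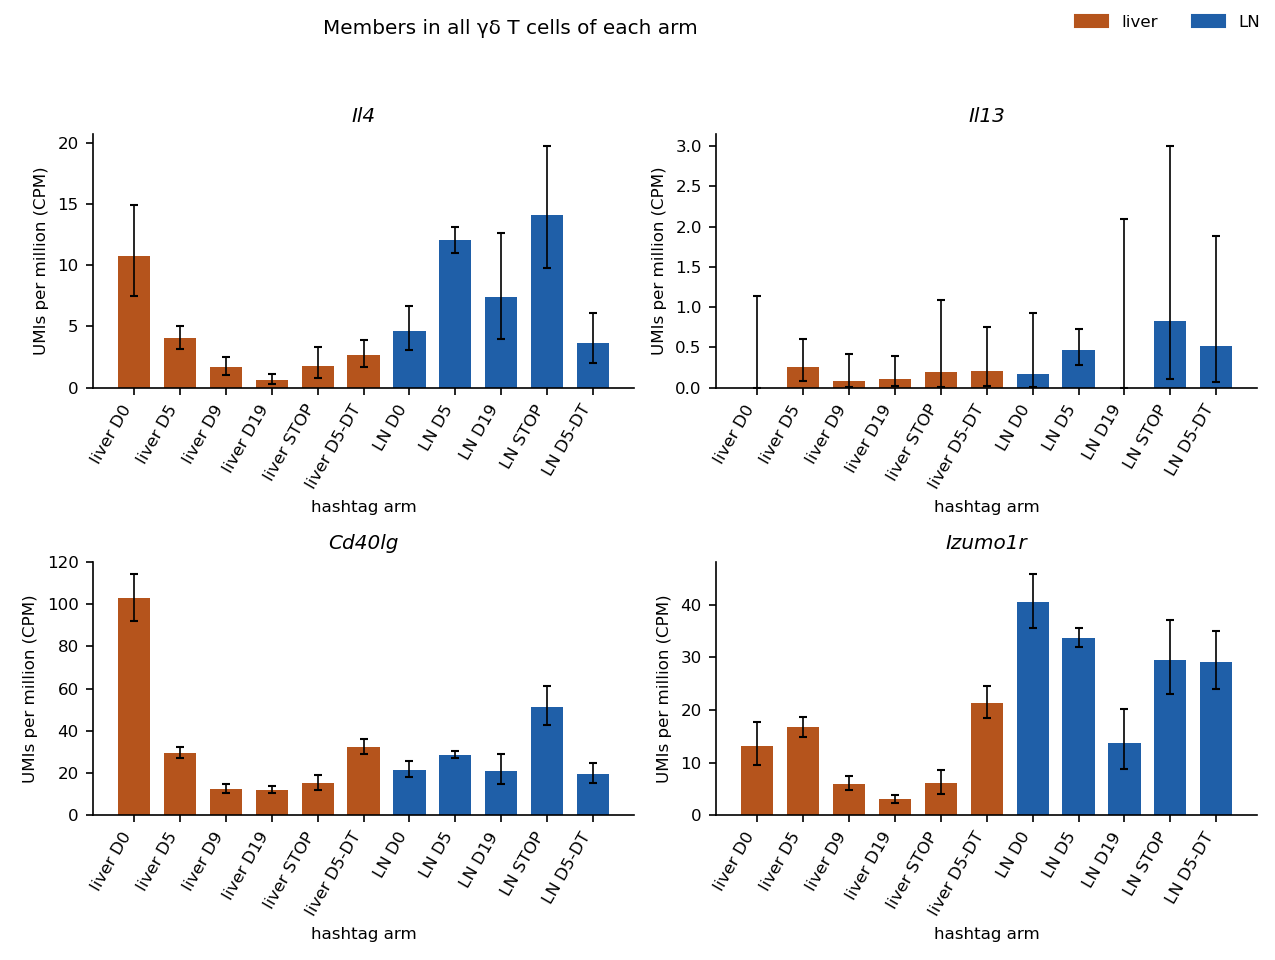
Level of Il4, Il13, Cd40lg and Izumo1r (CPM) in all γδ T cells of each hashtag arm, liver and LN, with exact 95% Poisson intervals for counting error. Il4 sits at 12.0 CPM in LN D5 and 10.8 CPM in liver D0, and Cd40lg peaks at 102.9 CPM in liver D0.

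In the LN, 5 days of DDC went with more Il4 and slightly more Cd40lg in the sums, and slightly less Izumo1r. Il4 was 2.60-fold higher at D5 than at D0 (log2 ratio 1.38, interval 0.83 to 1.98). Cd40lg was 1.34-fold higher (log2 ratio 0.42, interval 0.15 to 0.69), but the ratio was -0.00928 among the 32 D0 and 259 D5 cells without a UMI of Trac, Trbc1 or Trbc2. The log2 ratio of Izumo1r was -0.27 (interval -0.46 to -0.06). By the rule used to compare with all genes, a log2 ratio of at least 1 in size after 10 CPM had been added to both levels, 0.161% of 7459 genes passed and 0 of the 3 members that could be tested did. The Il4 difference is therefore clear of counting error but small in absolute CPM.

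The liver moved the other way. Il4 at D5 was at 0.374 of its D0 level (log2 ratio -1.42, interval -2.01 to -0.80) and Cd40lg at 0.288 of it (log2 ratio -1.80, interval -1.995 to -1.60). The log2 ratio of Izumo1r was 0.34 (interval -0.12 to 0.83). By the same rule 0.34% of 7638 genes passed in this comparison, and Cd40lg was among them, 1 of 3 members. From D5 to D9 the levels over all liver γδ T cells went down again. The log2 ratios were -1.27 for Il4 (interval -2.03 to -0.57), -1.25 for Cd40lg (interval -1.51 to -0.99) and -1.48 for Izumo1r (interval -1.86 to -1.12). There 2.77% of genes passed the rule and 0 of 2 members did. The Il4 values behind the D9 over D5 ratio lie near the background given above for this pool. Such sums also depend on the mix of γδ T cell subsets, which differed between these arms.

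At STOP the levels were compared with those of D19. In the liver the log2 ratio of STOP over D19 was 1.53 for Il4 (interval 0.08 to 2.94, from 9 and 11 UMIs), 0.33 for Cd40lg (interval -0.06 to 0.71) and 1.02 for Izumo1r (interval 0.33 to 1.68). In the LN it was 0.94 for Il4 (interval -0.02 to 1.98), 1.29 for Cd40lg (interval 0.75 to 1.86) and 1.11 for Izumo1r (interval 0.43 to 1.85). In these comparisons 1.47% and 1.29% of genes passed the rule, with 0 of 1 and 0 of 3 members. Within the cluster of γδ T cells that held most of the Il4 the liver Izumo1r ratio had the opposite sign, at -1.51 with an interval that includes 0 (-4.68 to 0.58).

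LN γδ T cells of the D5-DT mice, sequenced in another pool, held less Il4 than those of the D5 mice. The log2 ratio of D5-DT over D5 in the LN was -1.72 for Il4 (interval -2.61 to -0.96), -0.56 for Cd40lg (interval -0.91 to -0.22) and -0.21 for Izumo1r (interval -0.50 to 0.07). In the liver it was -0.62 for Il4 (interval -1.33 to 0.05), 0.13 for Cd40lg (interval -0.07 to 0.33) and 0.36 for Izumo1r (interval 0.10 to 0.61). The rule was passed by 0.376% of genes in the LN (0 of 3 members) and by 0.272% in the liver (0 of 2 members). Free RNA differed between these pools: it held Il4 at 20.6 CPM in the LN D0 and D5 pool and at 2.69 CPM in the D5-DT pool. Under 12 alternatives, free RNA subtraction among them, the LN ratio ran from -1.81 to -0.867 for Il4. For Izumo1r it ran from -1.53 to -0.123. Values after subtraction are uncertain, because the estimated free RNA share came to 131% at liver STOP, which is not possible. The part of free RNA in the LN difference was thus not tested. In the D5-DT pool Il4 was found in 1.35% of 222 monocyte or macrophage-like cells and in 3.28% of 61 neutrophil-like cells (interval 0.40 to 11.3%) but in 0 of 121 B cell-like cells, against 1.54% of LN and 1.15% of liver γδ T cells, so the shares of all γδ T cells there could not be set apart from background. Within the D5-DT pool itself, LN and liver could be compared without a change of pool, and there the log2 ratio of LN over liver was 0.48 for Il4 (interval -0.58 to 1.48), -0.73 for Cd40lg (interval -1.11 to -0.36) and 0.45 for Izumo1r (interval 0.10 to 0.79), with 3.26% of genes and 0 of 2 members past the rule. The Izumo1r ratio turned to -0.945 among the few cells without a UMI of Trac, Trbc1 or Trbc2.

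Where in the γδ T cells these transcripts lay was read from clusters made without the 4 genes and without Il17a and Il17f. 1 cluster held most of the Il4, and it is called the Il4-high cluster here for that reason. It held 524 of 582 Il4 UMIs of the LN arms (90.0%) and 151 of 179 Il4 UMIs of the liver arms (84.4%), in 9.62% and 5.67% of the γδ T cells. It also held 79.6% of Cd40lg UMIs in the LN and 52.4% in the liver, 23 of the 24 LN and 6 of the 11 liver Il13 UMIs (the other 5 lay in NK-like cells), and 41.3% and 42.5% of Izumo1r UMIs. The shares differed between arms: in the liver the cluster held 78.2% of Cd40lg UMIs at D0 and 21.6% at D19, and 65.1% and 29.6% of Izumo1r UMIs.

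Against all the other γδ T cells, its leading genes were Cd40lg, Il4 and Izumo1r, then Socs2, P2rx7, Tmem273, Lyst, Atp8a2, Art2b and Inpp4b, with Ly6a, Asb2, Fasl, Ifng and Tbc1d4 after them. Socs2 restrains cytokine signalling, P2rx7 is a receptor for extracellular ATP and Art2b an enzyme that acts on it, Fasl encodes the ligand of a death receptor, and Ifng encodes IFN-γ. Of the marker lists, 4 of 7 markers of the IFN-γ type (Tbx21, Ifng, Cxcr3 and Xcl1) and 5 of 9 of the PLZF type (Zbtb16, Gata3, Cd4, Tcrg-V1 and Slamf6) were raised by 0.5 or more on the log2 scale. The mean over the PLZF list was 0.29, as Pdcd1, Cd200 and Tox2 were lower in the cluster, and Ccl5 of the IFN-γ list was lower as well. None of the 7 naive markers, 0 of the 8 markers of each γδ T17 list and 1 of 9 of the NK-like list were raised. Against all cells of the pools the IFN-γ type fitted best, with 6 of 7 markers raised, but none of its 10 leading genes was a marker of that type, and the cluster is therefore called by its leading genes only.

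The γδ T cell identity of the cluster was checked in the LN and liver arms at D0 and D5. The constant genes of the γδ receptor summed to 2244 to 2408 CPM. The constant genes of the αβ receptor summed to 1798 to 2102 CPM. Over the cluster as a whole Trdc was at 1237 CPM and Trac at 60.8 CPM. Trav11, the invariant chain of NKT cells, and Foxp3 were at 0 in these 4 groups. Such αβ receptor RNA was also found across the whole sort, as 86.5 to 97.6% of γδ T cells of an arm held a UMI of Trac, Trbc1 or Trbc2. A measure that nearly all cells meet cannot tell whether the cluster differs from the others in this RNA.

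**Figure D2:**
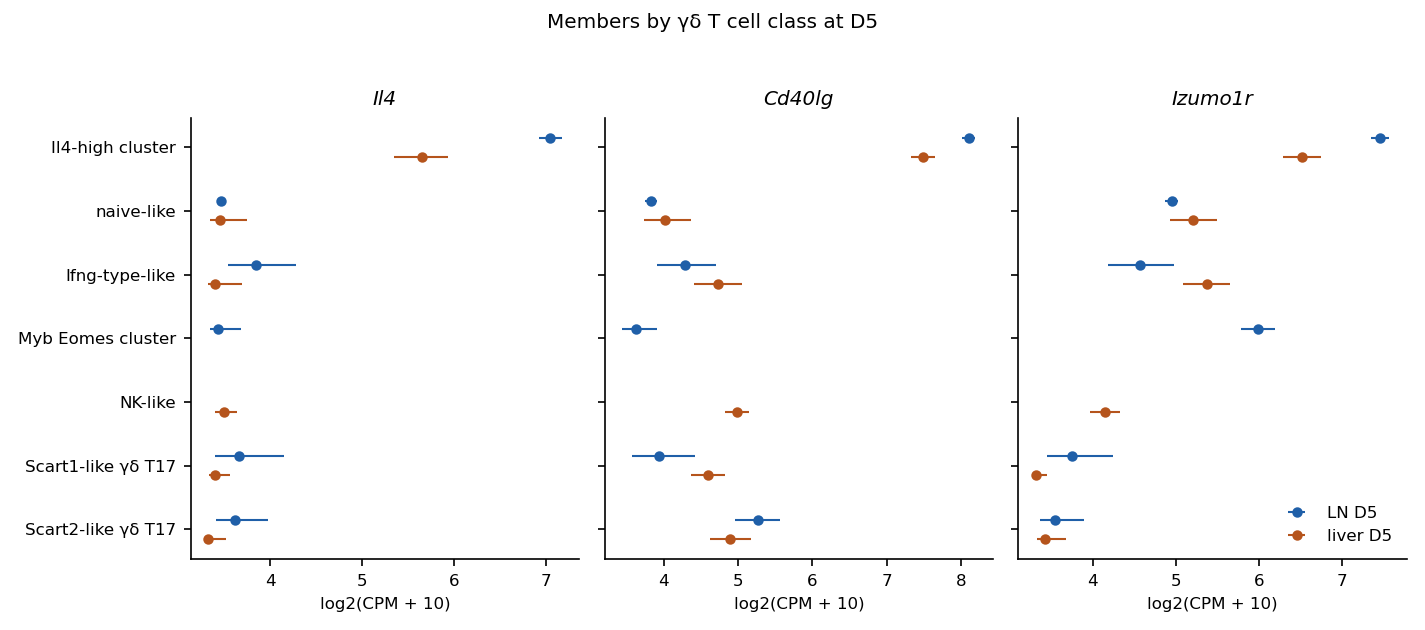
Level of Il4, Cd40lg and Izumo1r (log2 of CPM with 10 added, exact 95% Poisson intervals) by γδ T cell class in the liver and the LN at D5. Il4 and Cd40lg are highest in the Il4-high cluster in both tissues. Izumo1r is also found in naive-like cells, in IFN-γ-type-like cells of the liver and in a Myb Eomes cluster of the LN.

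Outside the cluster Il4 was close to its background. At D5 in the LN it was 122.5 CPM within the cluster (447 UMIs in 866 cells) and 1.23 CPM in the other 7848 γδ T cells. Naive-like cells held it at 1.01 CPM, IFN-γ-type-like cells at 4.34 CPM and γδ T17-like cells at 2.38 CPM. Naive-like cells held Il4 at 4.89% of its level in the free RNA of the pool.

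Cd40lg was spread more widely in the liver. Liver γδ T cells outside the cluster held it at 30.9 CPM at D0 and 17.1 CPM at D5, against 5.52 CPM in LN cells outside the cluster at D5. NK-like cells of the liver, which carry granzymes and killer cell receptors, held Cd40lg at 64.3 CPM at D0 and 21.6 CPM at D5. Among γδ T17-like cells of the LN at D5, Scart2-like cells (which are marked by Ccr6 and by the receptor gene 5830411N06Rik) held Cd40lg at 28.4 CPM, and Scart1-like cells held it at 5.25 CPM, with intervals that did not overlap (21.2 to 37.4 and 1.93 to 11.4 CPM). In the liver at D5 the intervals of these classes overlapped, at 19.7 CPM in Scart2-like and 14.1 CPM in Scart1-like cells. At D5-DT Scart2-like cells held 0 Cd40lg UMIs, which allows up to 5.10 CPM in the 152 liver cells and 31.8 CPM in the 35 LN cells. At LN STOP the Il4-high cluster held 58.1% of the 124 Cd40lg UMIs, and 38 of them lay in 71 Scart2-like cells. At LN D19 72 Scart2-like cells held 6.

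Izumo1r had a different distribution. In the LN at D5 it was 165.8 CPM in the Il4-high cluster, 53.6 CPM in a cluster led by Myb and Eomes, 21.0 CPM in naive-like cells, 13.7 CPM in IFN-γ-type-like cells and 2.38 CPM in γδ T17-like cells. In the liver at D5 γδ T17-like cells held it at 0.307 CPM and naive-like cells at 27.1 CPM. Of its 320 UMIs there, 61 lay in 327 IFN-γ-type-like cells, 57 in 422 naive-like cells and 50 in 1164 NK-like cells. Izumo1r was thus low in γδ T17-like cells of both tissues. Its levels in naive-like cells were alike in the liver and the LN (interval 20.5 to 35.1 CPM and 19.3 to 22.7 CPM).

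The size of the cluster differed far more between liver arms than between LN arms. In the liver it held 166 of 634 γδ T cells at D0 (26.2%), 9.38% at D5 (343 of 3658), 3.44% at D9 (87 of 2526), 1.34% at D19 (84 of 6254), 2.44% at STOP (37 of 1518) and 11.8% at D5-DT (214 of 1820). In the LN it made up 7.10% at D0 (93 of 1309), 9.94% at D5 (866 of 8714), 9.03% at D19 (38 of 421), 12.9% at STOP (58 of 448) and 8.73% at D5-DT (68 of 779). Liver D0 (interval 22.8 to 29.8%) did not overlap any other arm. LN D0 (5.77 to 8.63%) and LN D5 (9.32 to 10.6%) did not overlap either, although they were much closer. These are shares of the sorted cells, and how many cells of each subset a liver or an LN held cannot be read from them. Among the few cells without a UMI of Trac, Trbc1 or Trbc2 the shares were larger, at 46.67% for liver D0, 17.83% for liver D5, 12.5% for LN D0 and 17.37% for LN D5, in the same order within each tissue. Other classes differed in size between arms too. The γδ T17-like share went from 36.4% at liver D5 to 82.9% at liver D9 and 79.9% at liver D19. That of NK-like cells went from 31.8% at liver D5 to 3.01% at liver D9. In the LN the γδ T17-like share was 2.90% at D0 and 28.0% at D19. How much of the differences over all γδ T cells goes with these shares was not tested.

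**Figure D3:**
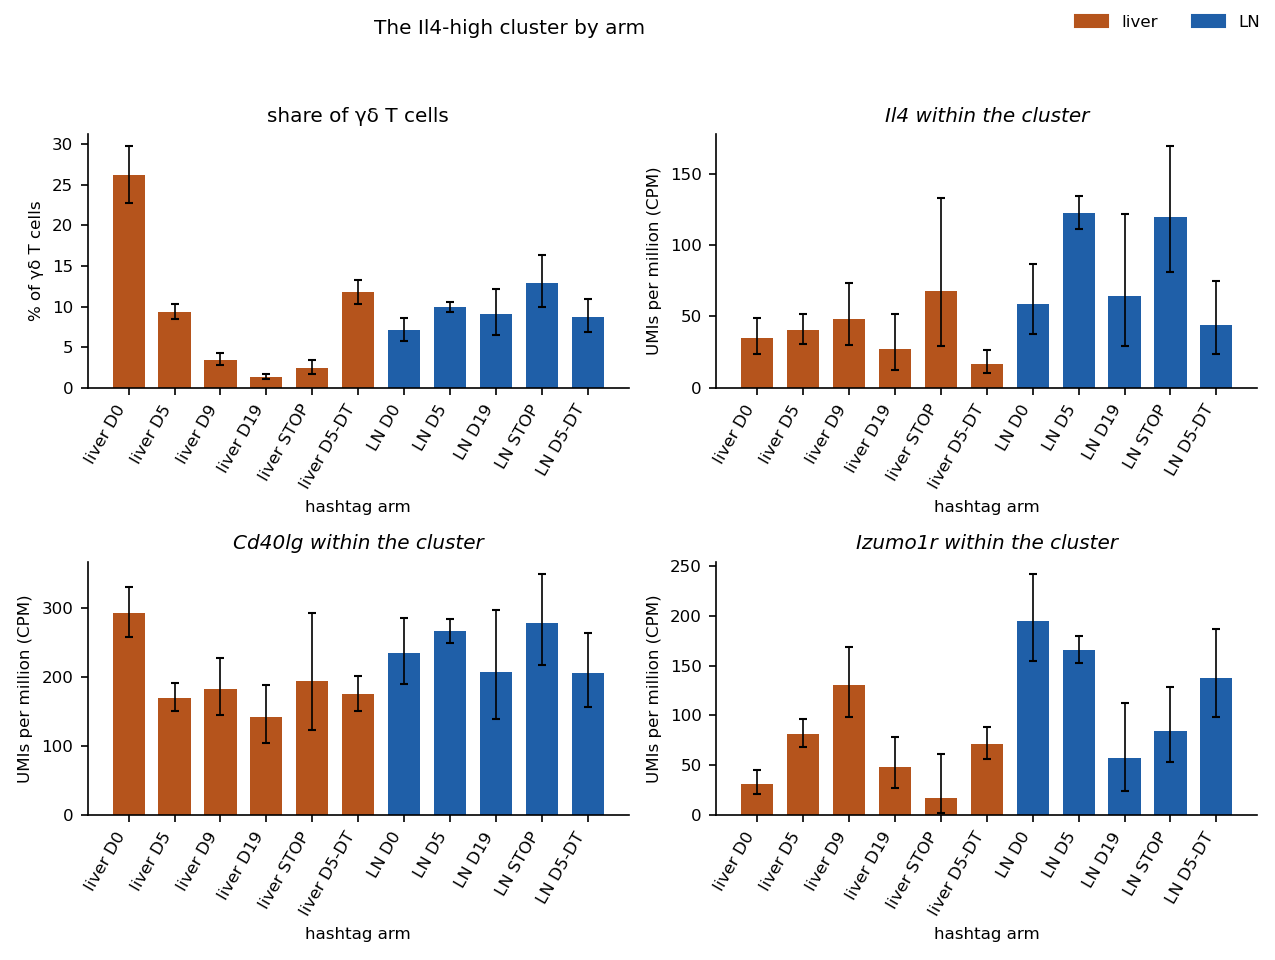
Share of γδ T cells in the Il4-high cluster (%, exact 95% binomial intervals) and the Il4, Cd40lg and Izumo1r levels within it (CPM, exact 95% Poisson intervals), by arm. The liver share runs from 26.2% at D0 to 1.34% at D19, while Il4 within the cluster is highest in LN D5 at 122.5 CPM.

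Within the cluster, Il4 was higher in the LN at D5 than at D0. Its LN levels were 58.4 CPM at D0, 122.5 CPM at D5, 64.1 CPM at D19, 119.4 CPM at STOP and 43.6 CPM at D5-DT. The share of cluster cells with Il4 was 24.7% at D0 and 32.3% at D5 at like depth (medians of 4384 and 3937.5 UMIs). The log2 ratio of D5 over D0 was 1.07 for Il4 (interval 0.48 to 1.73), 0.19 for Cd40lg (interval -0.12 to 0.50) and -0.23 for Izumo1r (interval -0.57 to 0.12). With 10 CPM added, 1.4% of 7739 genes passed the rule and 0 of 3 members, Il4 lying just inside it at 0.95.

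In the liver the Il4 levels within the cluster had intervals that all overlapped, D5-DT left aside, while the share of the cluster went down from D0 to D19. It was 34.6 CPM at D0, 40.1 CPM at D5, 48.0 CPM at D9, 27.2 CPM at D19, 67.7 CPM at STOP and 16.9 CPM at D5-DT. The log2 ratio of D5 over D0 was 0.21 (interval -0.43 to 0.88) and that of D9 over D5 was 0.26 (interval -0.53 to 0.99). The fall of Il4 over all liver γδ T cells between D0 and D5 was thus seen in the share of cluster cells, and no difference in level within them could be shown at this depth.

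Cd40lg and Izumo1r changed within the liver cluster, in opposite directions. Cd40lg was 292.7 CPM at D0 and 170.0 CPM at D5 (log2 ratio -0.78, interval -1.04 to -0.53), and then 182.7 CPM at D9. Izumo1r was 31.3 CPM at D0, 81.5 CPM at D5 (log2 ratio 1.38, interval 0.78 to 2.03) and 130.2 CPM at D9 (log2 ratio over D5 of 0.68, interval 0.20 to 1.14). It was lower again at D19 (48.3 CPM, 16 UMIs) and at STOP (16.9 CPM, 2 UMIs), and it was 71.0 CPM at D5-DT. The share of cluster cells with Izumo1r was 14.5% at D0, 21.9% at D5 and 33.3% at D9. Between D0 and D5 in this cluster 0.788% of 7742 genes passed the rule, and Izumo1r was among them, 1 of 3 members.

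The D5-DT arms had low Il4 within the cluster in both tissues. Against D5 the log2 ratio was -1.49 in the LN (interval -2.41 to -0.70) and -1.25 in the liver (interval -2.07 to -0.49). The Cd40lg ratios were -0.38 in the LN (interval -0.77 to just under 0) and 0.04 in the liver (interval -0.23 to 0.31), and those of Izumo1r were -0.27 (interval -0.76 to 0.19) and -0.20 (interval -0.62 to 0.21). In the LN 2.78% of 8313 genes passed the rule, and Il4 was 1 of 3 members that did. These differences are between pools as well as between mice with and without the receptor and the toxin, which cannot be told apart. Within the D5-DT pool Il4 in the cluster was higher in the LN than in the liver (log2 ratio 1.37, interval 0.23 to 2.47, from 13 and 19 UMIs), as was Izumo1r (0.96, interval 0.38 to 1.52), where 4.2% of 8329 genes passed the rule and 0 of 3 members did.

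Of the pathway lists, the immediate early genes, which follow receptor signals within minutes, were counted in the same comparisons. Within the LN cluster, 7 of 10 were higher at D5 than at D0 by the rule and 0 were lower, with a median log2 difference of 1.36 against 0.00 over all genes tested, of which 1.4% passed. Egr1 was 24.4 CPM at D0 and 213.2 CPM at D5, Fos was 119.3 CPM and 734.3 CPM, Cd69 was 36.5 CPM and 251.1 CPM, and Nr4a1 was 60.9 CPM and 171.0 CPM. Egr2 and Egr3, early targets of NFAT, were at 15.6 and 33.4 CPM at D5. They were at 0 in the 93 D0 cluster cells, which are too few to show absence. Nr4a2 was the remaining gene. Over all LN γδ T cells 3 of 9 were higher (Nr4a2, Egr1 and Fos), with a median of 0.72 against -0.00, where 0.161% of all genes passed. In the liver cluster 0 of 9 were higher at D5 than at D0 and 1 was lower (Egr3). Whether these genes bear on Il4 was not tested, and the other comparisons are given as values only. Over all liver γδ T cells Il4 was lower at D9 than at D5. There 2 of 8 immediate early genes were lower (Nr4a2 and Dusp2) and 0 were higher, where 2.77% of all genes passed. In the LN cluster at D5-DT over D5, where Il4 was lower, 0 of 10 were lower and 1 was higher (Egr2), with a median of -0.07 against 0.06 over all genes tested. In the cluster of the D5-DT pool, where Il4 was higher in the LN than in the liver, 4 of 10 were higher in the LN (Egr1, Egr2, Egr3 and Fos), with a median of 0.65 against 0.05. At STOP over D19 in all LN γδ T cells, where the Il4 interval includes 0, 0 of 9 passed the rule. Over all γδ T cells 0 of 9 passed it at liver D5 over D0 and at LN D5-DT over D5, where Il4 was lower. There 0.34% and 0.376% of all genes passed. At liver STOP over D19, where Il4 was higher, 0 of 8 passed, against 1.47% of all genes. At liver D5-DT over D5 and at LN over liver in the D5-DT pool, where the Il4 intervals include 0, 0 of 9 passed (0.272% and 3.26% of all genes).

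Of the other lists no gene passed the rule in the LN cluster between D0 and D5, where 1.4% of all genes did, so these counts do not set the lists apart from other genes. None of the 10 regulators that could be tested of 13 (among them Gata3, Zbtb16, Maf and Nfatc1), 0 of 5 surface molecules of 11 (Icos and Cd28 among them), 0 of 8 receptor and signalling genes of 11, and 0 of 3 genes of the folate receptor and anergy list of 7 passed the rule. In the liver cluster between D0 and D5, Slamf6, which binds its own kind on other lymphocytes, was 32.4 CPM and then 85.9 CPM, and Nt5e (CD73), an enzyme that makes adenosine and marks anergic cells together with FR4, was 27.9 CPM and then 78.9 CPM. These 2 genes were the only ones of the lists to pass the rule upward there, where 0.788% of all genes passed. They were 1 of 5 surface molecules tested and 1 of 3 genes tested of the folate receptor and anergy list. Cd28, a co-receptor, passed it downward over all liver γδ T cells, as 1 of 6 surface molecules tested, where 0.34% of genes passed. In the cluster of the D5-DT pool 4.2% of 8329 genes passed between LN and liver. Of 7 surface molecules tested, Slamf6 was higher in the LN and Pdcd1 in the liver. Of 8 receptor and signalling genes tested, Il4ra was higher in the liver.

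Per cell, Cd40lg was found in a larger share of Il4+ than of Il4- γδ T cells in the LN at D5, although most cells with either gene held only 1 of them. Cd40lg was found in 179 of 320 Il4+ γδ T cells (55.9%, interval 50.3 to 61.5%) and in 5.35% of Il4- γδ T cells (interval 4.88 to 5.85%), at like median depth (4175 and 4239 UMIs). After every cell had been thinned to 1000 UMIs, the shares were 24.0% of 104 Il4+ cells (interval 16.2 to 33.4%) and 2.43% of the Il4- cells (interval 2.11 to 2.77%). Izumo1r was found in 43.4% of Il4+ cells and in 9.05% of Il4- cells. Read from the other side, 28.5% of 628 Cd40lg+ cells held Il4, and 35.8% held Izumo1r.

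Within the cluster the gap between Il4+ and Il4- cells was small. At LN D5 Cd40lg was found in 61.1% of Il4+ cells (interval 55.1 to 66.8%) and in 55.3% of Il4- cells (interval 51.2 to 59.4%), and after thinning in 26.6% and 22.8%. Izumo1r was found in 45.0% of Il4+ and 35.5% of Il4- cluster cells, whereas after thinning the shares were 12.8% and 14.2%. The intervals of each thinned pair overlapped, so no preference for 1 cell to hold both could be shown within the cluster at this depth.

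Of the 8714 LN D5 cells, 81 held Il4, Cd40lg and Izumo1r together, 98 held Il4 and Cd40lg without Izumo1r, 58 held Il4 and Izumo1r without Cd40lg, and 83 held Il4 alone of these 3. Another 144 held Cd40lg and Izumo1r, 305 held Cd40lg alone and 616 held Izumo1r alone. The cells that held Il4, Cd40lg and Izumo1r lay almost wholly in the cluster, 78 of 81. Of the 14 Il13+ cells 9 held Il4, 9 held Cd40lg and 6 held Izumo1r.

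The other arms had few Il4+ cells, and Cd40lg was found in a larger share of them than of Il4- cells in each arm. In the liver Cd40lg was held by 25 of 29 Il4+ cells at D0, 33 of 58 at D5, 12 of 18 at D9, 4 of 11 at D19, 2 of 8 at STOP and 9 of 21 at D5-DT. In the LN it was held by 13 of 27 at D0, 3 of 10 at D19, 17 of 21 at STOP and 4 of 12 at D5-DT. At liver D0 the share was 86.2% (interval 68.3 to 96.1%) against 18.7% of Il4- cells (interval 15.6 to 22.02%), and that arm had the highest Cd40lg level of all. After thinning, no arm but LN D5 kept more than 16 Il4+ cells.

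**Figure D4:**
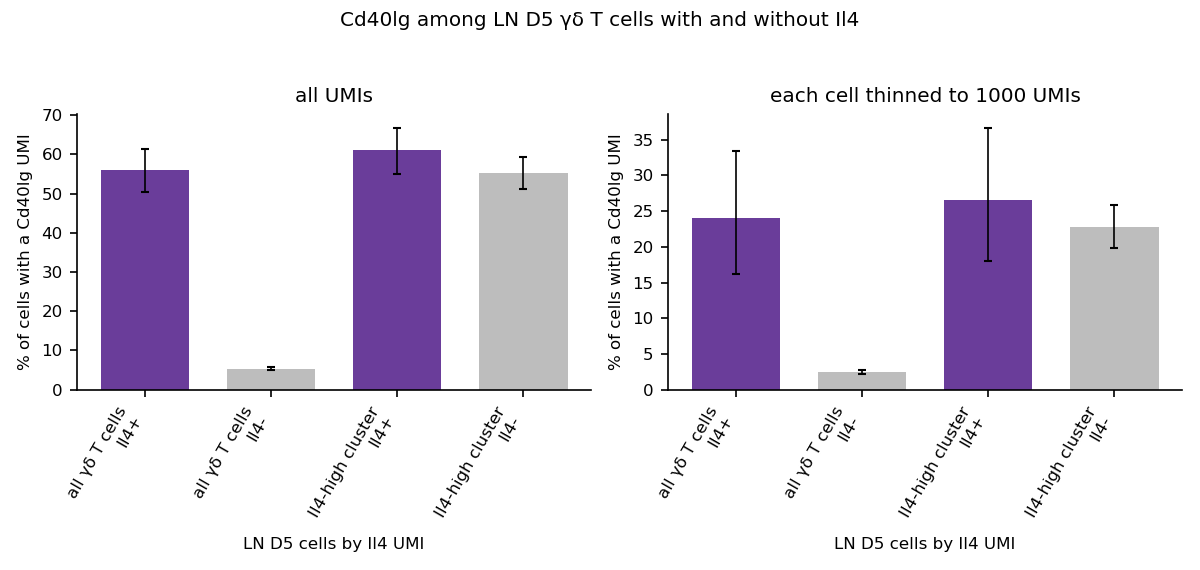
Share of LN D5 γδ T cells with Cd40lg among Il4+ and Il4- cells (%, exact 95% binomial intervals). All γδ T cells and the Il4-high cluster are shown, with all UMIs and after thinning to 1000 UMIs. Over all LN D5 γδ T cells the shares are 55.9% and 5.35%, and within the cluster they are 61.1% and 55.3%.

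What else the Il4+ cells held was read at LN D5. Icos, a co-stimulatory receptor of helper T cells, was found in 66.3% of Il4+ cells and 18.8% of Il4- cells, and Zbtb16 in 38.1% and 4.94%. Ifng was found in 25.6% and 11.9%, Gata3 in 36.6% and 20.9%, and Il17a in 0.938% and 3.00%. Within the cluster the gap closed for Ifng (25.4% and 27.5%) and Gata3 (37.1% and 38.6%), while Icos was found in 68.9% and 57.2% and Zbtb16 in 41.4% and 31.4%. Trac was found in 18.1% of Il4+ cells and 25.8% of Il4- cells over all LN D5 γδ T cells. In this arm Il4 was thus not more common among cells with that αβ receptor RNA. At liver D5, where 2365 of 3658 γδ T cells held no Trac, those cells held only 40 of 77 Il4 UMIs and 133 of 320 Izumo1r UMIs. At liver D0 the 503 of 634 cells without Trac held 31 of 35 Il4 UMIs but 23 of 43 Izumo1r UMIs.

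Among LN D5 γδ T cells outside the γδ T17-like clusters, thinned to 1000 UMIs, the share of cells with a gene was compared between cells with and without Il4. Klf2, which keeps T cells circulating, was found in 7.84% of 102 Il4+ cells and 60.5% of Il4- cells. Id2 was found in 63.7% and 18.1%, Xcl1 in 40.2% and 10.7%, and Cxcr6, a chemokine receptor of tissue lymphocytes, in 36.3% and 8.55%. Bcl2a1b, Gimap4 and Dusp1 were also more common with Il4, and Ms4a4b and Ly6c2 less common. The list for Cd40lg shared Klf2, Id2, Cxcr6, Xcl1 and Ms4a4b and added Icos (29.4% of 228 Cd40lg+ cells and 5.24% of the others) and Ly6e, which were more common with Cd40lg, and Smc4 and Crip1, which were less common.

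The receptor genes of Il4+ γδ T cells differed from those of the other γδ T cells. Tcrg-V1 was found in 55.4% of LN Il4+ cells and 25.4% of LN Il4- cells, and in the liver in 55.2% and 16.7%. It was not the only segment more common with Il4. Tcrg-V4, a marker of Scart2-like cells, was found in 15.1% and 9.34% in the LN and in 23.4% and 10.05% in the liver. Trgv2 and Trav15-1-dv6-1 were also more common in both tissues, while Trav13-4-dv7, Trdv1 and Trdv5 were less common among LN Il4+ cells. Trdv4 and Tcrg-V6, both markers of Scart1-like cells, were found in 11.7% and 4.83% of liver Il4+ cells against 49.1% and 25.8% of liver Il4- cells. In the LN these genes were rare and not set apart, with Trdv4 in 7.69% and 5.86% and Tcrg-V6 in 1.03% and 2.43%. Within the cluster Tcrg-V1 remained more common among LN Il4+ cells, at 58.7% and 45.0%, whereas in the liver cluster the shares were 59.8% and 52.7%, with overlapping intervals. The intervals of Tcrg-V4, Trgv2 and Trav15-1-dv6-1 overlapped within the cluster in both tissues. Near-identical receptor segments can share reads, so shares of single segments are uncertain.

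Over 58 groups of tissue, arm and class with 50 or more cells, the levels of Il4 and Cd40lg ran together (Pearson r of 0.87 on log2 of CPM with 10 added), those of Il4 and Izumo1r less so (0.69), and those of Cd40lg and Izumo1r least (0.52). Among 7576 other genes the patterns most like that of Il4 were those of P2rx7 (0.75), Bzw2 (0.74), Tcrg-C4 (0.71), Tbc1d4 (0.71) and Ldhb (0.70). For Cd40lg they were Gpr34 (0.81), Atp8a2, P2rx7, Tcrg-C4 and Asb2, and for Izumo1r they were Cd28 (0.84), Gm4258, Cd6, Tspan32 and Slamf6. The groups share pools and base these values on the same cluster in every arm, so they describe likeness across these groups and carry no test.

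In the CITE-seq libraries, cells of the CD4 T-like clusters and Foxp3+ cells held Cd40lg and Izumo1r, while Il4 was not detected in them. Il4 and Il13 were found in 0 UMIs among 2546 Foxp3- CD4 T cells, where a count of 0 allows up to 0.272 CPM. They were also found in 0 UMIs among 176 cells of CD4 T-like or Treg-like clusters with a Foxp3 UMI. The Foxp3- CD4 T cells are those of the CD4 T-like clusters only. Left out are Foxp3- cells of the Treg-like cluster, with 15 Il4 UMIs in 7 cells at D19. Also left out is a cluster led by Cxcr6 and Trdc, where 13 of 60 Il4+ cells held Cd4 RNA. Absence of Il4 from all LN CD4 T cells cannot be read from these counts. Cd40lg in the Foxp3- CD4 T cells was 158.1 CPM at D0, 125.4 CPM at D5 and 141.0 CPM at D19. In Foxp3+ cells it was 42.5 CPM, 16.2 CPM and 66.9 CPM, from 15, 4 and 12 UMIs. In each of the 3 libraries Foxp3+ cells were lower, with log2 ratios over Foxp3- CD4 T cells of -1.90 (interval -2.74 to -1.16), -2.96 (interval -4.84 to -1.59) and -1.08 (interval -2.04 to -0.26).

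Izumo1r had the opposite order. It was 66.5 CPM at D0, 59.1 CPM at D5 and 42.1 CPM at D19 in Foxp3- CD4 T cells, and 660.1, 557.5 and 412.6 CPM in Foxp3+ cells. The log2 ratios of Foxp3+ over Foxp3- cells were 3.31 (interval 3.06 to 3.56), 3.24 (interval 2.91 to 3.56) and 3.29 (interval 2.86 to 3.71), so the ratio was much the same in all 3 libraries. At D0 8.82% of 7334 genes passed the rule between Foxp3+ and Foxp3- cells, and both members that could be tested were among them. B cell-like cells, which should hold neither gene, held Izumo1r in 0.361% and Cd40lg in 0.0902% of 6653 cells at a median of 3229 UMIs.

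Levels were then compared between days, each of which was 1 library. In Foxp3- CD4 T cells the log2 ratio of D5 over D0 was -0.33 for Cd40lg (interval -0.51 to -0.16) and -0.17 for Izumo1r (interval -0.44 to 0.10), with 0.394% of genes and 0 of 2 members past the rule. D19 over D0 was -0.17 for Cd40lg (interval -0.34 to 0.01) and -0.66 for Izumo1r (interval -0.96 to -0.36), with 1.88% of genes and 0 of 2 members. In Foxp3+ cells Izumo1r at D19 over D0 had a log2 ratio of -0.68 (interval -1.08 to -0.29). The Cd40lg ratios in Foxp3+ cells were -1.39 at D5 (interval -3.44 to 0.26) and 0.65 at D19 (interval -0.57 to 1.85), from few UMIs. Izumo1r was also lower at D19 than at D0 in other cells of these libraries, with log2 ratios of -0.79 in CD8 T-like cells (interval -1.23 to -0.35) and -1.67 in the cluster led by Cxcr6 and Trdc (interval -2.87 to -0.65), so the difference was not particular to the CD4 groups.

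In the same Foxp3- cells the detection of Izumo1r was compared with that of Cd40lg. Izumo1r was found in 17.2% of 961 Cd40lg+ Foxp3- CD4 T cells (interval 14.8 to 19.7%) and in 16.7% of the Cd40lg- cells (interval 14.9 to 18.6%). In CD4 T cells the shares differed by less than counting error, whereas among all LN D5 γδ T cells Izumo1r was found in 35.8% of Cd40lg+ and 8.34% of Cd40lg- cells. Within the Il4-high cluster at LN D5 the shares were 40.2% (interval 35.9 to 44.7%) and 36.4% (interval 31.5 to 41.5%), which overlapped as they did in CD4 T cells. Other lists also set Foxp3+ cells apart at D0: 7 of 12 regulators (Gata3, Maf, Batf, Bcl6, Tox2, Ikzf2 and Nfil3), 6 of 9 surface molecules (Icos, Tnfsf8, Tnfrsf4, Pdcd1, Sh2d1a and Cd200), and Nt5e and Lag3 of 4 genes of the folate receptor and anergy list were higher in them. The median of all genes tested was itself 0.24 there, against 1.13, 1.43 and 1.17 in these lists, and 8.82% of all genes passed. Il10 and Areg, the 2 cytokines tested, were higher as well. Of 7 receptor and signalling genes tested 0 passed (median 0.14). Of 9 immediate early genes 3 were higher and 1 was lower (Egr3).

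**Figure D5:**
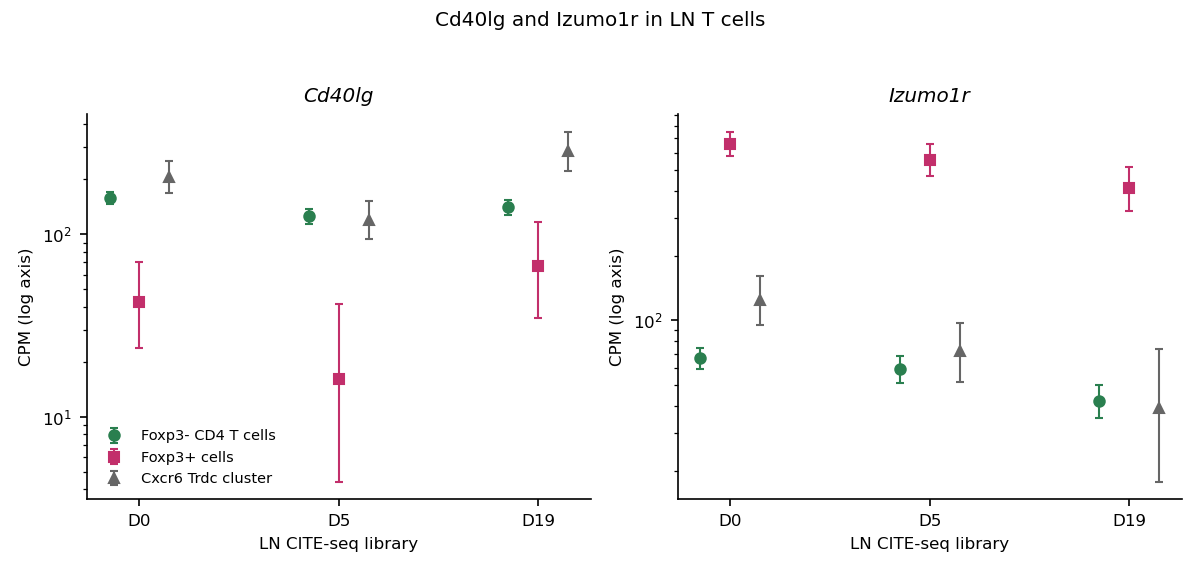
Levels of Cd40lg and Izumo1r (CPM on a log axis, exact 95% Poisson intervals) in Foxp3- CD4 T cells, Foxp3+ cells and the Cxcr6 Trdc cluster of the LN CITE-seq libraries at D0, D5 and D19. Izumo1r is highest in Foxp3+ cells (412.6 to 660.1 CPM). Most cells of the Cxcr6 Trdc cluster held Trac RNA without Trdc RNA.

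The CITE-seq libraries held Il4 elsewhere. Of 120 Il4 UMIs in 18524 cells, 86 (71.7%) lay in a cluster of 267 cells. It was picked as the cluster with the highest Il4 level, so this share is a description only. It is called here by its leading genes, Cxcr6 and Trdc. Its Il4 level was 85.0 CPM at D0 (interval 61.0 to 115.3), 56.7 CPM at D5 and 52.0 CPM at D19. By library it held 41 of 52 Il4 UMIs at D0, 33 of 35 at D5 and 12 of 33 at D19. Of its 60 Il4+ cells 34 held Cd40lg and 20 held Izumo1r. Most cells of the cluster held αβ receptor RNA: 165 of the 267 held Trac without Trdc and 37 held Trdc without Trac. Of the Il4+ cells 46 of the 60 held Trac without Trdc, 5 held Trdc without Trac, 1 held both and 8 neither. Cd4 RNA was found in 13 of the 60, and their median CD4 surface tag count was 186.5, against 68 in the Il4- cells of the cluster. These libraries were not sorted for the γδ receptor, and the log2 ratio of D5 over D0 for Il4 in this cluster was -0.58 (interval -1.29 to 0.11). At D19 more of the Il4, 15 UMIs, lay in 7 Foxp3- cells of the Treg-like cluster, which held 0 at D0 and D5. Il13 in the Cxcr6 Trdc cluster was 2 UMIs at D0 (4.1 CPM), 4 at D5 (6.9 CPM) and 8 at D19 (34.6 CPM). The log2 ratio of D19 over D0 was 3.06 (interval 0.74 to 6.34), from these few UMIs. The Treg-like cluster held 2 Il13 UMIs at D19.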

How the data were processed

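RNA and antibody-tag counts were used from 8 unfiltered matrices, which the authors deposited as UMI counts per gene and barcode, made with Cell Ranger on mm10 per the submitters' processing notes. Kept cells had no fewer than 1000 UMIs and 500 genes, with a mitochondrial share of up to 10%. An arm was assigned where the strongest hashtag reached 10 UMIs and exceeded the second by 3 times or more. The highest Scrublet scores (0.8% per 1000 cells of a pool) were left out as likely doublets. Free RNA was not subtracted. Clusters (scanpy 1.11.5, leidenalg 0.10.2, 2000 genes, 30 components, 15 neighbours, resolution 1.0) were made without the 4 genes, Il17a and Il17f. They were named from markers with a mean log2 difference of 0.5 or more and at least 3 raised.

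Sums got exact Poisson intervals, ratios exact conditional and shares Clopper-Pearson intervals (95%), for counting error only. A count of 0 was given a limit of 3 counts. Genes at 10 or more CPM in either group were compared after adding 10 CPM. Members, lists and markers were chosen with earlier results of these data known. Named genes were the members, list genes past the rule, the 5 genes most like a member and the 10 with the widest gap in thinned detection, of which 1 is not reported here. Alternatives covered filters, hashtag rule, doublets, free RNA, scaling, resolution, αβ receptor RNA and thinning. The calculations were tested on simulated data.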

Additional observations from a re-analysis of the deposited data

Results flagged for a closer look

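Il4 and Cd40lg moved in opposite directions in the tissues between D0 and D5. Over all γδ T cells the log2 ratio of Il4 was 1.38 in the LN and -1.42 in the liver, and that of Cd40lg was 0.42 in the LN and -1.80 in the liver. LN and liver arms were sequenced in different pools with 1 arm per condition, and the difference between the tissues was not tested. Within the Il4-high cluster Il4 had log2 ratios of 1.07 in the LN and 0.21 in the liver, and the share of γδ T cells in that cluster went from 7.10% to 9.94% in the LN and from 26.2% to 9.38% in the liver.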

How the results depend on the processing

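The main comparisons (the members in LN γδ T cells at D5 over D0, in the D5-DT pool LN over liver, the thinned co-detection at LN D5, and Izumo1r in Foxp3+ over Foxp3- cells at D0) gave 89 values under the alternatives, of which 83 kept their direction and size. Leaving out cells with a UMI of Trac, Trbc1 or Trbc2 removed 86.5 to 97.6% of the γδ T cells of an arm. With the few cells left, Cd40lg in the LN had a log2 ratio of -0.00928 and Izumo1r of -1.01 at D5 over D0, and Izumo1r was at -0.945 for LN over liver in the D5-DT pool. Without thinning, the Cd40lg co-detection gap was 50.59 percentage points, against 21.61 with it. Izumo1r in Foxp3+ cells was at 3.01 with clusters at resolution 0.5 and at 2.69 for Treg-like against CD4 T-like clusters. Il4 at LN D5 over D0 ranged from 1.33 to 1.50 under the 11 alternatives that gave a value, and free RNA subtraction gave none. The 1.50 came with Trac+ cells left out, an alternative chosen after seeing the data.

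The share of the Il4-high cluster ranged from 23.72 to 46.67% at liver D0, 8.04 to 17.83% at liver D5, 6.91 to 12.5% at LN D0 and 9.72 to 17.37% at LN D5, highest without αβ receptor RNA. Of 584 other values 556 moved by less than their counting interval and 28 by more. Over all liver γδ T cells the D9 over D5 ratio ran from -3.44 to -1.12 for Cd40lg and from -2.18 to -0.827 for Izumo1r. STOP over D19 ran from 1.44 to 3.1 for Il4, -1.35 to 0.421 for Cd40lg and 0.317 to 2.1 for Izumo1r. D5-DT over D5 ran from -1.1 to 0.8 for Cd40lg. With free RNA subtracted, the liver D5 over D0 ratios were -2.78 for Il4 and -2.47 for Cd40lg (-0.788, with an interval that includes 0, for Cd40lg without αβ receptor RNA). Il4 at LN D5 over D0 had no value, as 33.6 UMIs were expected from free RNA at D0 and 28 were seen. The free RNA share, estimated from B cell and hepatocyte genes, came to 131% at liver STOP, which is not possible. It was 54.9% and 56.2% at liver D0 and D5. At LN D5 it was 23.6%, while naive-like cells held Il4 at 4.89% of its free RNA level. Subtracted values, also within these ranges and counts, are therefore uncertain and are no check of the results. With αβ receptor RNA left out, Il4 and Cd40lg had no value in the D5-DT pool. No paired analysis was possible because each condition was 1 arm or 1 library and the labels share no replicate numbers. The few UMIs of Il13 in every arm, and of Il4 in the liver after D5, leave wide intervals.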

Other observations

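The receptors for these signals were read in the cells of the LN CITE-seq libraries that could receive them. Cd40 was at 194.3 CPM at D0, 122.9 CPM at D5 and 124.7 CPM at D19 in mature DC-like cells, at 78.3, 61.9 and 56.9 CPM in B cell-like cells, and at 1.28, 1.86 and 0.638 CPM in Foxp3- CD4 T cells. Il4ra was found in all 3, at 75.0, 55.2 and 52.7 CPM in mature DC-like cells, at 55.9, 54.7 and 38.6 CPM in B cell-like cells and at 48.6, 55.4 and 33.5 CPM in Foxp3- CD4 T cells. Il13ra1, the partner that IL-13 needs, was at 29.8, 40.2 and 32.4 CPM in mature DC-like cells and at 0 to 0.418 CPM in B cell-like cells. Each day was 1 library, so the differences between days have no replicate.

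Foxp3- cells of the Treg-like cluster held Izumo1r at 358, 276 and 281 CPM at D0, D5 and D19, above the Foxp3- cells of the CD4 T-like clusters at each day. In the Treg-like cluster as a whole Cd40lg was 58.6 CPM at D0 and 47.9 CPM at D5 (log2 ratio -0.29, interval -0.81 to 0.21). At D19 it was 112 CPM (log2 ratio over D0 of 0.93, interval 0.51 to 1.35).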
